A study of Mus musculus with 6 samples.

Results

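The genes described here make cholesterol and fatty acids, sense sterols, or export cholesterol from the cell. They were chosen as a list of 34 gene symbols, matched to the array probes by current symbol or synonym, with the brightest probe standing for each gene. Of the 34 genes, 31 had a named probe and 27 were above background on at least 2 of the 6 arrays and were tested. Acat2, Hmgcs1 and Fdft1 had no named probe and were not analysed here. Acaca, Fasn, Abca1 and Abcg1 had a probe that did not reach the filter. The 27 tested genes were part of 12093 genes tested in all.

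Cholesterol is built from acetyl-CoA by way of mevalonate, farnesyl pyrophosphate and squalene, and the first sterol, lanosterol, is then trimmed and rearranged in many enzyme steps. Most of these enzymes are switched on together by SREBP transcription factors, which the escort protein Scap carries out of the endoplasmic reticulum when sterol is scarce and which Insig proteins hold back when it is plentiful. Fatty acid synthesis starts from citrate-derived acetyl-CoA and ends with elongation and desaturation. Activated T cells are known to draw on both pathways to build new membrane.

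The samples were CD4 T helper cells bearing the CD45.1 marker, taken from spleens of tumour-bearing mice of the C57BL/6 background 12 days after they had been transferred. Th9 cells, Th1 cells and Th17 cells were compared, with 2 Illumina bead arrays each. Th9, Th1 and Th17 name helper subsets by the cytokines interleukin 9, interferon gamma and interleukin 17. The labels do not give the tumour, the donor line or an untreated group, and they call the other array of a kind only a repeat, so p-values rest on a spread between arrays that may be technical only. The cells were sorted for CD45.1 and CD4, and in such bulk samples fewer cells of a type and less RNA per cell cannot be told apart.

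Mean intensity per array ranged from 117.1 to 171.1 array units, with the lowest on Th1 array 2, and 41 to 45.2% of the 45281 probes were above background. Intensities are therefore given as deposited, and differences are given as log2 fold changes after background correction with an offset of 50 and scaling of all arrays to one distribution, which understates the change of dim genes. Standard errors of the log2 fold changes were between 0.106 and 0.141 for the tested genes, with n = 2 arrays per kind. The T cell genes Cd3d, Cd3e, Cd3g, Cd2, Cd28 and Cd4 were above background on 6 of 6 arrays. Cd8b1, a CD8 T cell gene, was also above background on 6 of 6 arrays, at 552.2 to 1257.7 array units, whereas Cd8a was on 0.

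Many enzymes of the sterol pathway were higher in Th9 than in Th1 cells. Of the 27 tested genes, 10 were higher in Th9 and 0 lower at an adjusted p below 0.05, where 5.81% of all 12093 genes were higher and 4.82% lower. The genes were Mvd, Fdps, Sqle, Lss, Cyp51, Msmo1, Hsd17b7, Dhcr7, Acly and Scd1. A total of 8 of them belong to the 15 tested enzymes of the sterol pathway. The largest difference was that of Hsd17b7, with a log2 fold change of 1.66 ± 0.11, followed by Scd1 with 1.04 ± 0.12 and Msmo1 with 0.75 ± 0.11.

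The median log2 fold change of the 15 sterol pathway enzymes was 0.38 between Th9 and Th1, beside 0.012 over all genes tested, and 14 of the 15 were above 0. Of the 27 tested genes, 24 were above background on 6 of 6 arrays, and of these 9 were higher and 0 lower. When only the 8360 genes above background on all 6 arrays were tested, the members again gave 9 and 0. Of these 8360 genes, 608 were higher and 555 lower. Over all genes, those called higher fell from 703 to 388 with an offset of 16 and to 134 without background correction. The members' count of 10 fell to 6 and to 1 under these settings, and it also fell when a single Th9 or Th1 array was left out. With arrays scaled to their median it was 14, under which the median over all genes was 0.14 instead of 0.012 and all calls split into 1543 higher and 186 lower instead of 703 and 583. Relative to that shift the median of the sterol enzymes was 0.33.

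Th17 cells also differed from Th1 in this direction. Of the 27 genes, 6 were higher in Th17 than in Th1 and 0 lower, where 7.48% of all genes were higher and 7.39% lower. They were Mvd, Msmo1, Ebp, Insig1, Acly and Elovl6. The median of the 15 sterol enzymes in this comparison was 0.24, beside 0.0045 over all genes, and 15 of 15 were above 0. The count of 6 fell to 3 with an offset of 16, where those higher over all genes fell from 905 to 562. The members' count also fell without Th17 array 2. Without background correction 145 of all genes were higher, and none of the 6 members passed. Mvk, near background, was the only member called there (3.14, adjusted p = 0.0471). The count was 13 with arrays scaled to their median, where the median of all genes was 0.15 and all calls split into 2488 higher and 245 lower, against 905 and 894.

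Between Th9 and Th17, 5 of the 27 genes were higher in Th9 and 1 was lower, where 10% of all genes were higher and 8.94% lower. Lss, Cyp51, Msmo1, Hsd17b7 and Scd1 were higher in Th9 and Elovl6 was lower. The median of the 15 sterol enzymes was 0.13, beside 0.0056 over all genes, and 11 of the 15 were above 0. The count of 5 fell to 2 with an offset of 16, without background correction or with arrays scaled to their median. Those higher over all genes fell from 1212 to 834, 373 and 699 under these settings. The members' count also fell when a single Th9 or Th17 array was left out. With the mean of all probes no member call was lost, and Sqle (0.34, adjusted p = 0.0473) and Nsdhl (0.30, adjusted p = 0.0382) passed as well. There 1077 of all genes were higher. All calls split into 699 higher and 924 lower with median scaling, against 1212 and 1081.

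The 3 comparisons share arrays, so their values are given side by side and not as separate support. Hsd17b7, Msmo1, Cyp51, Lss and Scd1 were called higher in Th9 than in both other kinds, a pattern that 3.73% of all genes had. Acly, Msmo1 and Mvd were called lower in Th1 than in both others, a pattern of 1.35% of all genes. Elovl6 alone among the tested members was called higher in Th17 than in both others, which 4.7% of all genes were. No tested member was called highest in Th1, which 1.83% of all genes were, lowest in Th9 (2.51%) or lowest in Th17 (4.23%). In at least 1 comparison 13 of the 27 were called, against 26.1% of all genes, and 14 in none, against 73.9%.

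**Figure D1:**
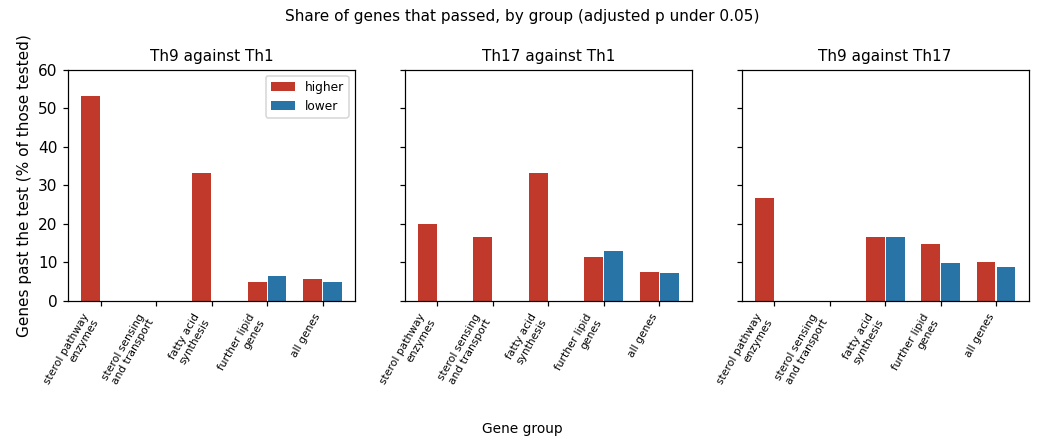
Share of tested genes that passed the test (percent, y axis) in each gene group (x axis), with red bars for genes higher and blue bars for genes lower in the first-named kind, in 3 comparisons. Sterol pathway enzymes reached 53.3% higher and 0% lower in Th9 against Th1, beside 5.81 and 4.82% of all genes.

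Averaged over the 15 tested sterol enzymes, each centred on its own mean over the arrays, the log2 level was 0.17 and 0.22 on the Th9 arrays, -0.00033 and 0.03 on the Th17 arrays and -0.19 and -0.22 on the Th1 arrays. The kinds did not overlap, with Th17 between the others. With 2 arrays per kind, uncalled genes such as Mvk, Tm7sf2 and Sc5d also did not overlap between Th9 and Th1. The share of all genes without overlap is not given, so such statements here and below are descriptions only. Without Hsd17b7 the averages of the other 14 were 0.11 and 0.16 for Th9, 0.02 and 0.06 for Th17 and -0.16 and -0.20 for Th1. Hsd17b7 had the largest difference between Th9 and Th17 of the 15, so leaving it out brings these averages nearer by construction.

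**Figure D2:**
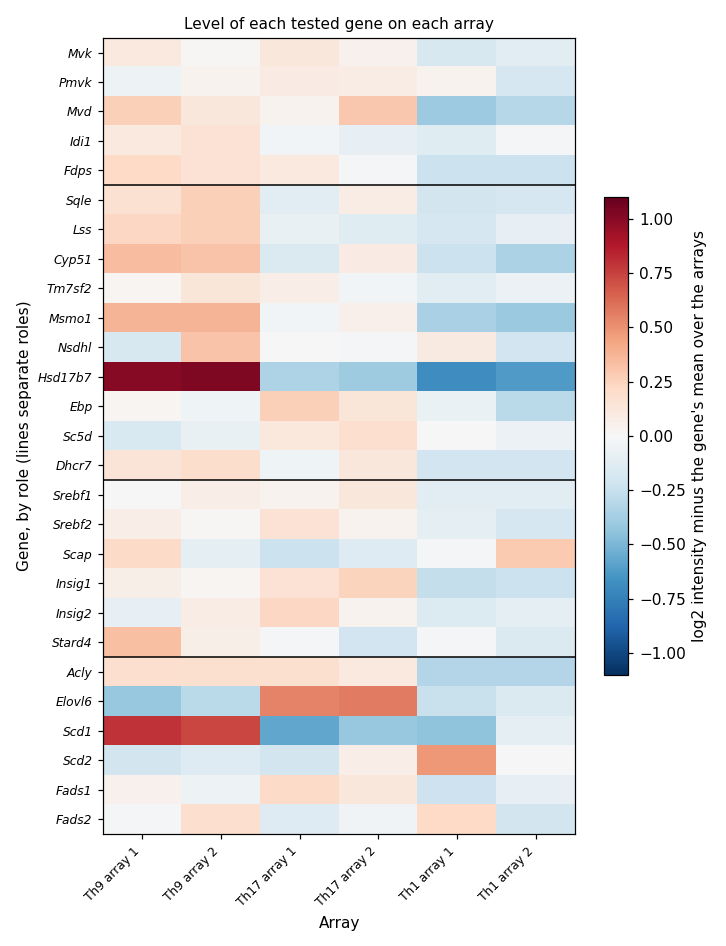
Level of each of the 27 tested genes (rows, grouped by role) on each of the 6 arrays (columns), as log2 intensity minus the gene's mean over the arrays (colour). The strongest contrasts are Hsd17b7 and Scd1 on the Th9 arrays and Elovl6 on the Th17 arrays, and most sterol enzymes are lowest on the Th1 arrays.

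The early enzymes carry acetyl-CoA units to farnesyl pyrophosphate. Mvd, which makes isopentenyl pyrophosphate by decarboxylation, read 149.8 and 155.5 array units in Th9, 141.6 and 171.9 in Th17, and 65.1 and 57.6 in Th1. Th9 and Th17 overlapped, and both lay clear of Th1. The log2 fold change was 0.55 ± 0.12 for Th9 against Th1 (adjusted p = 0.00318) and 0.52 ± 0.12 for Th17 against Th1 (adjusted p = 0.00364), beside 0.02 for Th9 against Th17.

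Fdps, the synthase of farnesyl pyrophosphate, read 1402.7 and 1519.5 in Th9, 1618.5 and 1348.6 in Th17, and 1002.9 and 815.5 in Th1. It passed in Th9 against Th1, at 0.42 ± 0.11 (adjusted p = 0.0141), and not in Th17 against Th1, at 0.28 (adjusted p = 0.0928). Its other probe gave 0.06 for Th9 against Th1 and did not pass, and the mean of both probes did not pass either (0.24, adjusted p = 0.126). Mvk and Pmvk, the kinases of mevalonate and phosphomevalonate, and Idi1, the isomerase, passed in no comparison. For Th9 against Th1 they gave 0.21, 0.06 and 0.21, and under median scaling Idi1 passed (0.46, adjusted p = 0.0266).

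Of the 10 tested genes of the squalene and sterol branch, 6 were higher in Th9 than in Th1, where 5.81% of all genes were. Higher in Th9 than in Th17 were 4 (10% of all genes), and higher in Th17 than in Th1 were 2 (7.48%). In each comparison 0 were lower, where 4.82, 8.94 and 7.39% of all genes were. Sqle, the oxygenase that epoxidises squalene, read 600.1 and 737.9 in Th9, 568.1 and 612.1 in Th17, and 419.3 and 351 in Th1. The scaled levels of Th9 lay above those of Th1 on every array, by 0.41 ± 0.11 (adjusted p = 0.0218). Another Sqle probe gave 0.58 and passed against Th1, and 0.44 against Th17, where it also passed (adjusted p = 0.0281) although the brightest probe did not (0.24). Lss, lanosterol synthase, closes the ring, and read 192.2 and 230.8 in Th9, 170.1 and 151.9 in Th17 and 117 and 101.8 in Th1. Lss was higher in Th9 than in Th1 by 0.38 ± 0.11 (adjusted p = 0.0263) and than in Th17 by 0.35 ± 0.11 (adjusted p = 0.0254).

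Cyp51 removes the 14-alpha methyl group of lanosterol. It read 226.3 and 261.2 in Th9, 169.8 and 202.3 in Th17, and 119.1 and 85.2 in Th1. The 3 kinds did not overlap, with Th9 highest and Th1 lowest. The log2 fold change was 0.62 ± 0.11 against Th1 (adjusted p = 0.000911) and 0.36 ± 0.11 against Th17 (adjusted p = 0.0326), while Th17 against Th1 did not pass (0.26, adjusted p = 0.159).

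The methyl groups at carbon 4 of the sterol are removed by a complex in which Msmo1 oxidises the methyl group, Nsdhl takes off the resulting carboxyl group and Hsd17b7 reduces the ketone that is left. Msmo1 read 579.3 and 666.6 in Th9, 502.2 and 495 in Th17, and 296.1 and 235.8 in Th1. It differed in each comparison, by 0.75 ± 0.11 for Th9 against Th1 (adjusted p = 4.66e-05), 0.36 ± 0.11 for Th9 against Th17 (adjusted p = 0.0216) and 0.39 ± 0.11 for Th17 against Th1 (adjusted p = 0.0151).

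Hsd17b7 read 799.3 and 935.2 in Th9, 337 and 301.9 in Th17, and 194.1 and 163.9 in Th1. Every Th9 array was above every other array, and every Th17 array above every Th1 array. On the scaled data Hsd17b7 was 3.17-fold higher in Th9 than in Th1 (1.66 ± 0.11, adjusted p = 1.06e-09) and 2.6-fold higher than in Th17 (1.38 ± 0.11, adjusted p = 7.11e-09). These calls held under 15 of 15 alternative settings. Th17 against Th1 gave 0.29 and did not pass (adjusted p = 0.0828), but passed with arrays scaled to their median (0.63) and with the mean of all probes (0.29). The other Hsd17b7 probe was above background on 0 arrays.

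Nsdhl, the other enzyme of the complex, depended on the probe. Its brightest probe read 51.7 and 113.5 in Th9, 77.5 and 70.1 in Th17, and 66.4 and 34.8 in Th1, so that the kinds overlapped, and it passed in no comparison (0.12 ± 0.14 for Th9 against Th1). Of its 3 other probes, 1 passed against both Th1 (0.47, adjusted p = 0.011) and Th17 (0.52, adjusted p = 0.00269). Another passed against Th17 alone (0.41, adjusted p = 0.0159) and gave 0.06 against Th1.

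Among the late steps, Dhcr7, which makes cholesterol from 7-dehydrocholesterol, read 24.6 and 33.1 in Th9, 16.1 and 25 in Th17, and 5.3 and 5.3 in Th1. It was above background on 0 of 2 Th1 arrays, so Th9 was at least 1.28-fold higher (adjusted p = 0.0301), a bound set by the lowest signal above background. Ebp, the sterol isomerase, read 520.5 and 575 in Th9, 745.4 and 620.4 in Th17 and 451.1 and 309.4 in Th1, and was higher in Th17 than in Th1 by 0.38 ± 0.11 (adjusted p = 0.0266). Ebp gave 0.17 for Th9 against Th1 and -0.21 for Th9 against Th17, neither of which passed. Tm7sf2, a sterol reductase, and Sc5d, the desaturase before Dhcr7, were close to background and passed nowhere. Sc5d gave -0.27 for Th9 against Th17 (adjusted p = 0.0924), the lowest value among the 15 enzymes in that comparison.

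Leaving out single arrays ended several calls in the sterol branch and the early steps. For Th9 against Th1, removal of Th9 array 1 gave adjusted p of 0.0665 for Mvd, 0.112 for Fdps, 0.068 for Sqle, 0.11 for Lss and 0.11 for Dhcr7. Removal of Th9 array 2 gave 0.0527 for Fdps, 0.158 for Sqle, 0.143 for Lss and 0.185 for Dhcr7. Without Th1 array 1 the values were 0.0763 for Sqle, 0.116 for Lss and 0.0772 for Dhcr7, and without Th1 array 2 they were 0.0593 for Fdps, 0.0683 for Sqle and 0.0772 for Dhcr7. Msmo1, Cyp51, Hsd17b7, Acly and Scd1 passed in Th9 against Th1 whichever single array was left out.

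For Th9 against Th17, Lss and Msmo1 lost their call on removal of any 1 of the 4 arrays compared, with adjusted p of 0.0928 to 0.157 and 0.0698 to 0.16. Cyp51 lost it without Th9 array 1 (0.153), Th9 array 2 (0.113) or Th17 array 1 (0.332). For Th17 against Th1, Mvd did not pass without Th17 array 2 (0.106), nor did Insig1 (0.0806). Msmo1 and Ebp did not pass without Th1 array 2 (0.0758 and 0.217), Th17 array 1 (0.0527 and 0.212) or Th17 array 2 (0.136 and 0.0705). The calls of Hsd17b7, Scd1 and Elovl6 in Th9 against Th17 held without any single array.

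**Figure D3:**
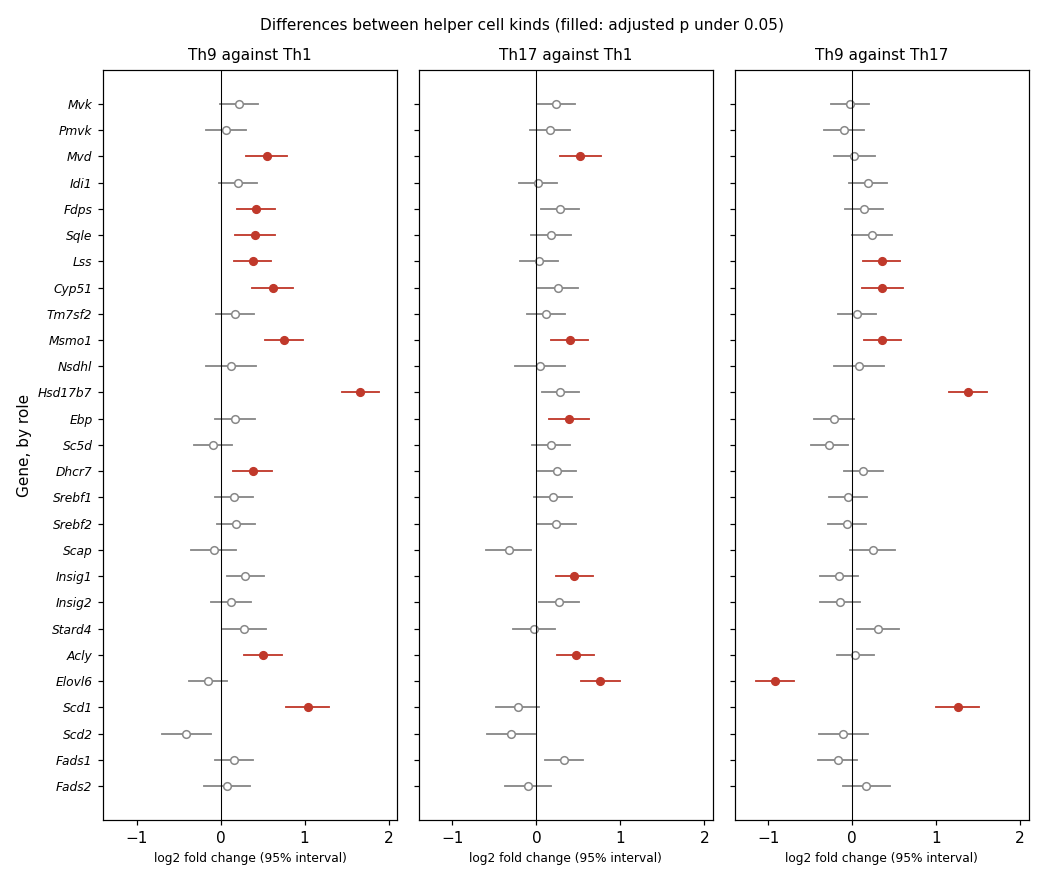
Log2 fold change (x axis) with its 95% confidence interval for each of the 27 tested genes (y axis, by role) in 3 comparisons, with filled red points for an adjusted p under 0.05 and open grey points otherwise. Most sterol enzymes lie to the right of 0 in Th9 against Th1, with Hsd17b7 at 1.66. In Th9 against Th17, 11 of the 15 lie to the right of 0, most by little. Hsd17b7 is at 1.38 there, with smaller shifts of Lss, Cyp51 and Msmo1.

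The promoters of the tested genes with the widest range between kinds are shown because promoters of sterol genes are known to combine SREBP sites with boxes bound by the factor NF-Y. A promoter here is 250 bases before to 50 after a gene's start in the RefSeq annotation of build GRCm38.p6, given in the gene's direction. Capitals mark the NF-Y box CCAAT on either strand, which reads ATTGG on the other. Hsd17b7 lies at chr1:169969156-169969455 on the minus strand, Elovl6 at chr3:129532136-129532435 on the plus strand, Msmo1 at chr8:64733529-64733828 on the minus strand and Cyp51 at chr5:4104648-4104947 on the minus strand.
Hsd17b7: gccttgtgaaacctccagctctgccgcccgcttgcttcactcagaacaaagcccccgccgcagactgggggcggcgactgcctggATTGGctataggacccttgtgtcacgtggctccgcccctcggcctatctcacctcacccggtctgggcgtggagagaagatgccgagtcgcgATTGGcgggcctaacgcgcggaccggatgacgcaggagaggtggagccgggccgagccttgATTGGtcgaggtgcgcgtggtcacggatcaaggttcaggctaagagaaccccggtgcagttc
Msmo1: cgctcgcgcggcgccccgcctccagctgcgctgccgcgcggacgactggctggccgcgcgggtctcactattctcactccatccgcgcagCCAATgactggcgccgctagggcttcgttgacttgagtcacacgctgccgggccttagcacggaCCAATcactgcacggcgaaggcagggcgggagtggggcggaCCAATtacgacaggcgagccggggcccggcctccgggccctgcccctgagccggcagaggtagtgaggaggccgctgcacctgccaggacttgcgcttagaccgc
Cyp51: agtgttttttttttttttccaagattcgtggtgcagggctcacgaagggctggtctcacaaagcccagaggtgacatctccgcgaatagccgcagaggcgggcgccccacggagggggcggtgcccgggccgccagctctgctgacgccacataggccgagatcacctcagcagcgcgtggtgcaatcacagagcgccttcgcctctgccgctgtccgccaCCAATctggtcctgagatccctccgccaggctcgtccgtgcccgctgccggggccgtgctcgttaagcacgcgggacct
Elovl6: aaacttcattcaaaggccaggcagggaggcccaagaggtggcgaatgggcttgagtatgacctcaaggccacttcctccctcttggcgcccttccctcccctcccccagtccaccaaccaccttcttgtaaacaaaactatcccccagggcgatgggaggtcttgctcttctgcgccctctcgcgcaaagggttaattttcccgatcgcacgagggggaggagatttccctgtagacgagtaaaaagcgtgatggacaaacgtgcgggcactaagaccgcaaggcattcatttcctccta
The window held 3 CCAAT boxes in Hsd17b7, 3 in Msmo1, 1 in Cyp51 and 0 in Elovl6. Promoters were found for 26 of the 34 genes, Scd1 not among them, and of these 20 (76.9%) held CCAAT in at least 1 window, beside 42.3% of 17492 protein-coding genes. The GC box GGGCGG, a site of Sp1-like factors, was in 22 of the 26 (84.6%) beside 49.2%, and the E-box CACGTG in 6 (23.1%) beside 8.91%. The sterol regulatory element TCACNCCAC was in 1 of 26 (3.85%), Hmgcs1, beside 1.41%. CACCCCAC, which can overlap it, was in 2 (7.69%), Acat2 and Hmgcs1, beside 3.33%. Neither gene had a named probe, so no tested gene with a promoter here held either exact form. Sites that differ from these forms were not searched for, so the counts do not show which promoters lack an SREBP site. All motifs were searched on both strands, and a match is a description of the letters in the window.

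Of the 6 genes of sterol sensing and transport, all tested, only Insig1 passed in any comparison, where 26.1% of all genes did. Srebf2, which encodes the SREBP that drives sterol synthesis, read 271.1 and 302.9 in Th9, 342.8 and 288.8 in Th17, and 212 and 157.9 in Th1. After scaling it passed in no comparison, at 0.18 ± 0.11 for Th9 against Th1 and 0.24 ± 0.11 for Th17 against Th1. Under median scaling both passed (0.48, adjusted p = 0.0307, and 0.59, adjusted p = 0.00628). Another Srebf2 probe gave -0.13 for Th9 against Th1 and did not pass.

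Srebf1, the SREBP of fatty acid genes, was dim, at 12.8 to 33.1 array units, and passed nowhere, nor did Scap. Scap read 97.7 and 81.4 in Th9, 67 and 70.3 in Th17, and 67.9 and 76.7 in Th1, and gave -0.33 ± 0.13 for Th17 against Th1 (adjusted p = 0.0971), a difference that passed without Th1 array 1 (-0.48, adjusted p = 0.0308). Its direction was opposite to that of the enzymes in the same comparison. Stard4, a carrier of cholesterol between membranes, read 572 and 544.4 in Th9, 516.2 and 404.4 in Th17 and 405.5 and 295.2 in Th1, and gave 0.28 against Th1 (adjusted p = 0.174) and 0.31 against Th17 (adjusted p = 0.089). Under median scaling the former passed (0.57, adjusted p = 0.0163). Without Th9 array 2 the difference from Th17 passed (0.45, adjusted p = 0.047).

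Insig1, which retains Scap in the endoplasmic reticulum and is itself an SREBP target, read 143.5 and 162.7 in Th9, 187.1 and 188.7 in Th17, and 91.4 and 75.1 in Th1. The 3 kinds did not overlap, with Th17 highest. It was higher in Th17 than in Th1 by 0.45 ± 0.11 (adjusted p = 0.006), and gave 0.29 for Th9 against Th1 (adjusted p = 0.0911). The former call ended with the mean of all its probes (0.28, adjusted p = 0.052), and the latter difference passed under median scaling (0.55, adjusted p = 0.00863). Of its 3 other probes, 1 passed in both of these comparisons (0.57, adjusted p = 0.00129, and 0.49, adjusted p = 0.0058) and 2 in neither. Insig2 passed in no comparison, at 0.26 for Th17 against Th1, which under median scaling was 0.61 and passed (adjusted p = 0.00579).

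Of 6 tested genes of fatty acid synthesis, Acly, Scd1 and Elovl6 passed, each in a pattern of its own. In at least 1 comparison 26.1% of all genes passed. Acly, which cuts citrate to give the acetyl-CoA for both pathways, read 2317.6 and 2602.2 in Th9, 2721.5 and 2427.4 in Th17, and 1566 and 1293.7 in Th1. Th9 and Th17 intensities overlapped, and both lay above Th1, after scaling by 0.51 ± 0.11 (adjusted p = 0.00281) and 0.47 ± 0.11 (adjusted p = 0.00439), and they differed by 0.04 between themselves. Both Acly calls ended with an offset of 16 (adjusted p = 0.0547 and 0.0571) and without background correction (0.148 and 0.136).

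Scd1, which puts the double bond into stearic and palmitic acid, read 166.7 and 185.9 in Th9, 33.6 and 42 in Th17, and 32.5 and 44.5 in Th1. Th17 and Th1 overlapped and Th9 stood far above both. On the scaled data Scd1 was 2.05-fold higher in Th9 than in Th1 (1.04 ± 0.12, adjusted p = 4.77e-06) and 2.39-fold higher than in Th17 (1.26 ± 0.12, adjusted p = 1.84e-07). The call against Th17 held under 15 of 15 alternatives, and that against Th1 ended without background correction, where the difference was larger (1.76, adjusted p = 0.101).

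Scd2, a close relative of Scd1 with the same activity, did not follow it. Scd2 read 60 and 78 in Th9, 70.9 and 94.2 in Th17, and 117.9 and 55.6 in Th1, with the widest gap between the arrays of Th1. It gave -0.41 ± 0.14 for Th9 against Th1 (adjusted p = 0.0677) and -0.30 for Th17 against Th1 (adjusted p = 0.168). Without Th1 array 2, the lower of the pair, both passed (-0.66, adjusted p = 0.00485, and -0.55, adjusted p = 0.0147). The genes are closely related in sequence, and cross-hybridisation between their probes was not tested.

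Elovl6, the elongase that extends palmitic to stearic acid, read 261.8 and 340 in Th9, 665.2 and 620.5 in Th17, and 271.8 and 241.4 in Th1. It was highest in Th17, clear of both other kinds, with -0.92 ± 0.11 for Th9 against Th17 (adjusted p = 2.55e-06) and 0.76 ± 0.11 for Th17 against Th1 (adjusted p = 4.44e-05). The former held under 15 of 15 alternatives, and the latter ended without background correction (0.87, adjusted p = 0.0607). A second, dimmer Elovl6 probe passed against Th9 (-0.47, adjusted p = 0.00493) and not against Th1 (0.32, adjusted p = 0.0647). Scd1 and Elovl6, which act on the same chain one after the other, were thus highest in different kinds.

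Fads1 and Fads2 desaturate polyunsaturated fatty acids. Fads1 read 1024.8 and 1074.8 in Th9, 1373.3 and 1198.3 in Th17, and 799.6 and 727 in Th1, and its difference between Th17 and Th1 lay at the threshold (0.33 ± 0.11, adjusted p = 0.0511). It passed with limma-trend (adjusted p = 0.0263), with no filter (0.0483), with probes above background on all 6 arrays (0.0438) and under median scaling (0.00133). Fads2, at 7 to 35.5 array units, passed nowhere.

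The synthase Fasn and the carboxylase Acaca, which build palmitic acid, could not be assessed. Fasn lay between -5.6 and 6.9 array units and Acaca between -3.9 and 0.7, and each was above background on at most 1 array. The cholesterol exporters Abca1 and Abcg1, which liver X receptors switch on when sterols accumulate, lay between -4.8 and 4.7 and between -1.5 and 30.5. Abcg1 was above background on 1 array, Th17 array 1. At these signals no level could be compared between the kinds, and a probe that does not hybridise well cannot be told apart from a gene with little RNA.

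**Figure D4:**
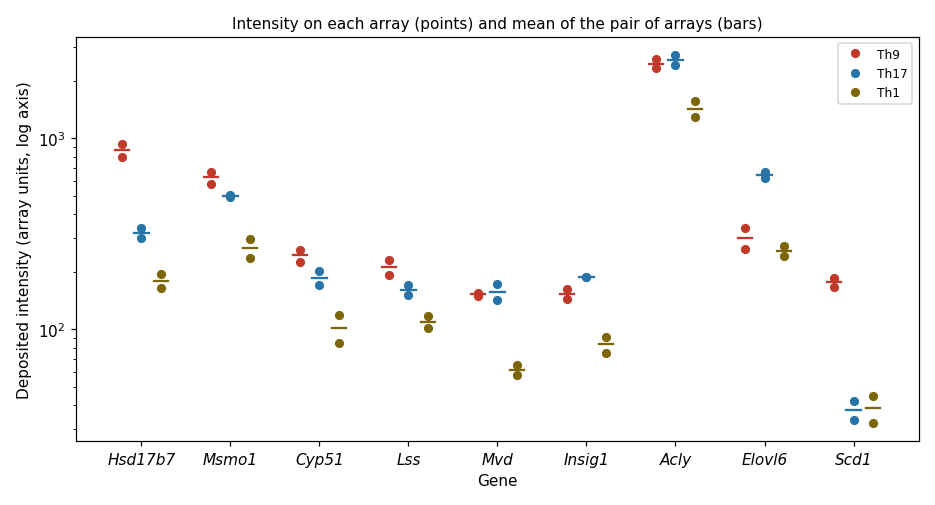
Deposited intensity (array units, log axis) of 9 genes on each array, with points for single arrays and bars for the mean of the 2 arrays of a kind (red Th9, blue Th17, brown Th1). Hsd17b7 and Scd1 are highest in Th9, Elovl6 in Th17, and Mvd and Acly are alike in Th9 and Th17 and lower in Th1.

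Other genes of lipid metabolism were listed in 5 groups, of which 61 of 79 were tested. For Th9 against Th1, 3 were higher and 4 lower (4.92 and 6.56%), near the 5.81 and 4.82% of all genes, with a median of 0.0019. For Th9 against Th17, 9 were higher and 6 lower (14.8 and 9.84%, beside 10 and 8.94% of all genes). For Th17 against Th1, 7 were higher and 8 lower (11.5 and 13.1%, beside 7.48 and 7.39%).

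In the group of SREBP processing and Insig turnover, 10 genes were tested. Rnf145, a ubiquitin ligase of sterol control, was higher in Th17 than in Th1 (0.88 ± 0.11) and lower in Th9 than in Th17 (-0.89 ± 0.11). Erlin1 and Erlin2, proteins of the endoplasmic reticulum that bind the SREBP and Scap complex, went the other way, at 0.67 and 0.48 for Th9 against Th17 and -0.47 and -0.44 for Th17 against Th1. None of the 10 passed in Th9 against Th1 in limma's test, where 0 had an unadjusted p below 0.05. Over all 12093 genes 5.81% were higher, 4.82% lower, and 2624 had an unadjusted p below 0.05.

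Of 12 tested genes of sterol esters, lysosomes and liver X receptor targets, 2 were higher in Th9 than in Th1 and 3 lower, where 5.81 and 4.82% of all genes were. Hsd3b7, an enzyme of bile acid synthesis that also inactivates oxysterol signals, was higher in Th9 than in Th1 (1.13 ± 0.11) and Th17 (0.93 ± 0.11). Npc2, which carries cholesterol within lysosomes, was lower in Th9 than in Th1 (-0.78 ± 0.11) and Th17 (-0.81 ± 0.11), and Osbpl9, an oxysterol-binding protein relative, was lower as well (-0.67 ± 0.11 and -1.05 ± 0.11). Lipa, the lysosomal lipase that frees cholesterol from its esters, was highest in Th17, at 0.75 ± 0.11 against Th1 and -0.85 ± 0.11 for Th9 against Th17. Cyp27a1, which makes 27-hydroxycholesterol, was above background on the Th1 arrays and on 0 arrays of the other kinds, so that it was at least 1.63-fold lower in Th9 and at least 1.62-fold lower in Th17. Lpcat3, which remodels phospholipids, was higher than in Th1 in both Th9 (0.66) and Th17 (0.51).

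A total of 17 genes of lipogenesis and fatty acid activation were tested. In Th9 against Th1, 1 was higher and 1 lower (5.88 and 5.88%, beside 5.81 and 4.82% of all genes). In Th9 against Th17, 1 was higher and 2 lower (5.88 and 11.8%, beside 10 and 8.94%). Between Th17 and Th1, 3 were higher in Th17 and 1 lower (17.6 and 5.88%, beside 7.48 and 7.39% of all genes). Acss2, which makes acetyl-CoA from acetate, was highest in Th17, at 0.75 ± 0.13 against Th1 and -1.04 ± 0.13 for Th9 against Th17. Acsl3, which activates long-chain fatty acids, was higher in Th17 than in Th1 (0.59), and Hacd3, of the fatty acid elongation cycle, was higher than in Th1 in both Th17 (0.56) and Th9 (0.36). Agpat3, an acyltransferase of phospholipid synthesis, was lower in Th9 than in Th1 (-0.43). Against Th17, Th9 was higher for the elongase Elovl1 (0.41) and lower for Dgat1, which makes triglyceride (-0.37).

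Of 14 tested genes of fatty acid oxidation, 4 were higher in Th9 than in Th17 and 0 lower, and 0 were higher and 4 lower in Th17 than in Th1, where 10% and 7.39% of all genes passed in these directions. Etfb, a subunit of the electron carrier of the pathway, had the largest differences (0.84 ± 0.11 and -1.02 ± 0.11), and Echs1 and Slc25a20 passed in both comparisons. Cpt2, which takes acyl groups off carnitine in mitochondria, was higher in Th9 than in Th17 (0.48), and Acadl, an acyl-CoA dehydrogenase, was lower in Th17 than in Th1 (-0.48). In Th9 against Th1 none of the 14 passed, where 5.81% of all genes were higher and 4.82% lower. An unadjusted p below 0.05 was reached by 1 of the 14, beside 2624 of all 12093 genes. Of 8 isoprenoid branch genes only Fnta, a prenyltransferase subunit, passed, in Th9 against Th17 (0.41 ± 0.11), where 10% of all genes were higher.

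Markers of other cells also differed between the kinds, and their part in the lipid gene differences was not tested. The summed intensity of the 7 B cell markers with a probe was 2450.9 to 3079.9 in Th9, 1489.9 to 1696.1 in Th1 and 224.1 to 251 in Th17, mostly Igkc and Cd74, while Pax5 was above background on 0 arrays and Ms4a1 on 1. Th17 was lowest for the B cell sum. Cd79b, another B cell marker, was above background on 6 of 6 arrays and passed in each comparison. Its log2 fold change was 0.45 for Th9 against Th1, 1.56 for Th9 against Th17 and -1.11 for Th17 against Th1. The summed erythroid and platelet markers were 638.7 to 692.3 in Th9, 45.8 to 53.5 in Th1 and 67.8 to 139.4 in Th17, while Alas2 was above background on 0 arrays. Hba-a1 was highest in Th9, at 544.2 and 582.6, beside 11.4 and 11.9 in Th1 and 27.3 and 24.4 in Th17. Hsd17b7 and Scd1 were also highest in Th9, and a link to these markers was not tested.

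Of the 7 granulocyte markers, summing to 84.8 to 104.1 in Th9, 11.1 to 23.1 in Th1 and 18.9 to 27.9 in Th17, Chil3 made up 68.6 and 85.3 on the Th9 arrays and was above background on 0 arrays of the other kinds, and S100a8 and S100a9 were above background on 0 arrays. The 10 macrophage, monocyte and dendritic markers summed to 196.5 to 223.8 in Th9, 121.3 to 183.9 in Th1 and 194.3 to 208.8 in Th17, mostly Lyz2, with Itgam, C1qb, Cd14 and Itgax on 0 arrays. Adgre1, a macrophage gene, was above background on both Th9 arrays, at 34.1 and 21.3, and on 0 others. Its Th9 mean was at least 1.27-fold higher than in Th1 and at least 1.29-fold higher than in Th17. The fitted differences were 0.51 (adjusted p = 0.00552) and 0.51 (adjusted p = 0.00289). The 5 CD8 T and NK cell markers summed to 1187.4 to 1309.5 in Th9, 1049.3 to 1187.3 in Th1 and 562.1 to 732.6 in Th17, nearly all from Cd8b1, with Cd8a and Ncr1 on 0 arrays. The 6 T cell markers with a probe summed to 15266.5 to 16266.1 in Th9, 13232.8 to 16720.2 in Th1 and 22380.9 to 23849 in Th17.

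The 15 cell cycle genes with a probe summed to 10960.3 to 12288 in Th9, 8793.6 to 10650.7 in Th1 and 11747.2 to 12394.1 in Th17 before scaling. After scaling, 0 of 14 passed in Th9 against Th1 in limma's test, where 5.81% of all genes were higher and 4.82% lower. An unadjusted p below 0.05 was reached by 1 of the 14, beside 2624 of all 12093 genes, and the median of the 14 was -0.03. In Th9 against Th17, 1 was higher, Mcm5 (0.40, adjusted p = 0.0101), and 0 were lower, where 10% of all genes were higher and 8.94% lower. There 4 had an unadjusted p below 0.05, beside 3478 of all 12093 genes, and the median of the 14 was 0.01. Of the 4, Mcm2, Mcm5 and Tyms were above 0 and Birc5 below. Between Th17 and Th1, 0 were higher and 1, Mcm5, was lower, where 7.48% of all genes were higher and 7.39% lower. There 5 had an unadjusted p below 0.05, beside 3178 of all 12093 genes, and the median of the 14 was -0.08. Of the 5, Mki67 and Top2a were above 0 and Mcm2, Mcm3 and Mcm5 below. The part of cell division in the lipid gene differences was not tested.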

How the data were processed

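Deposited intensities of 6 Illumina arrays were used. Per the labels' protocols, biotin-labelled cRNA was hybridised. How the authors corrected and scaled them is not stated in those sources, and that the scale is linear and background-subtracted was read from values centred near 0. Another deposited table holds 12 columns whose names match no label, and these were not used. Probes were named through gene identifier, accession, symbol or synonym.

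Values were corrected by normexp (offset 50), quantile-normalized and taken to log2. A probe counted as above background on an array when its value passed 1.645 times the noise, taken as the root mean square of negative values (thresholds 5.84 to 6.95), and was kept when above on 2 arrays. Each gene was represented by its brightest kept probe. One linear model over all arrays was fitted to 12093 genes with limma 3.58.1 in R 4.3.3 (3 residual and 16 prior degrees of freedom), with Benjamini-Hochberg adjustment over all genes within a comparison at 0.05. Other probes of a gene were tested in the same model over the 18614 named kept probes. A gene above background on 0 arrays of a kind is given as a bound over the lowest signal above background. Such a bound is a ratio of means without an interval, and adjusted p-values belong to the fitted differences. Marker sums count values below 0 as 0.

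The members and gene lists were chosen with earlier results of these data known. All members are named, and of the further lipid lists up to 6 called genes each, by largest absolute log2 fold change. Markers were named after their values were seen. Promoters are those of the 4 members with the widest range of group means in the RefSeq table. Alternatives varied the offset, the correction, the scaling, the dim-probe filter, the summary of probes, the variance trend, the arrays and a block on the repeat, the last chosen after seeing the data. The number of arrays limits the precision.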

Additional observations from a re-analysis of the deposited data

How the results depend on the processing

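Of 81 member differences tested, 22 were called, and 4 of these were called under each of the 15 alternatives, namely Hsd17b7 in both Th9 comparisons and, in Th9 against Th17, Scd1 and Elovl6. None of the 22 turned direction under any alternative, while 17 of the 81 differences, all uncalled, took the other sign in at least 1. The cause of the changes below was not tested, except that leaving out an array leaves fewer arrays, whose lone partner is then assumed to vary like the other kinds.

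Members called higher in Th9 than in Th1 numbered 10, and 6 with an offset of 16, 1 without background correction, and 5 to 10 without single arrays. Members called lower numbered 0, and 0 to 1 without single arrays, the 1 being Scd2 without Th1 array 2. In Th9 against Th17 the 5 called higher became 2 with an offset of 16, without background correction or with median scaling, and 2 to 5 without single arrays. In Th17 against Th1 the 6 called higher became 3 with an offset of 16, 13 with median scaling and 2 to 6 without single arrays, and the 0 called lower became 0 to 1. Without background correction 1 member was called there, Mvk, and none of the 6. With the mean of all probes, Sqle and Nsdhl were called higher in Th9 than in Th17 in addition to the 5.

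Of the further lipid genes, the 3 higher and 4 lower in Th9 against Th1 became 1 and 0 without background correction, and 9 were higher with median scaling. The 9 higher in Th9 against Th17 became 3 with an offset of 16, without background correction or with median scaling, and 4 to 11 without single arrays, and the 6 lower became 3 without background correction. In Th17 against Th1 the 7 higher became 0 without background correction and 16 with median scaling. The 8 lower became 4 with an offset of 16, 2 without background correction or with median scaling, 5 with the mean of all probes and 3 to 7 without single arrays.

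All genes called numbered 1286 in Th9 against Th1, with 725 at an offset of 16, 236 without background correction and 741 to 1142 without single arrays. In Th9 against Th17 they numbered 2293, with 674 without background correction and 1433 to 2550 without single arrays. In Th17 against Th1 they numbered 1799, with 1109 at an offset of 16, 314 without background correction, 2733 with median scaling and 1002 to 1699 without single arrays. Genes near background, among them Mvk, Sc5d, Tm7sf2, Dhcr7, Srebf1 and Fads2, were limited by signal. With the first array or repeat as a block, chosen after seeing the data, no member call changed. The block gave 10 members higher and 0 lower among 1255 calls over all genes for Th9 against Th1, and 5 and 1 among 2243 against Th17. For Th17 against Th1 it gave 6 and 0 among 1764. Deviations from the group means correlated between same-numbered arrays at -0.021 (Th9 and Th1), -0.023 (Th9 and Th17) and 0.014 (Th1 and Th17). Within a kind the deviation of the repeat mirrors that of the first array, so correlations across numbers only reverse the sign. These values do not settle whether same-numbered arrays were prepared together, which was not tested.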
